A study of Mus musculus with 10 samples.

Results

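The genes of the cytosolic ribosomal protein family were followed across 10 one-colour expression arrays of mouse embryonic stem (ES) cells. Members were all probes, other than control spots, whose listed transcript belongs to a gene with a symbol starting in Rpl (large subunit) or Rps (small subunit) and a digit, without the *Rps6k* kinases, *Rps19bp1* and numbered pseudogenes. The rule found 83 genes measured by 166 probes, of 20972 genes and 55681 probes on the array. Of these genes, 33 have a symbol starting in Rps and 50 one starting in Rpl. This is a count of symbols, and not every gene so named need encode a protein of the ribosome. The rule itself uses no measured value. RefSeq lists 1 of them, *Rps4l*, as a transcribed pseudogene.

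All groups were E14 ES cells (129/Ola) grown with serum and Lif, a cytokine that keeps them undifferentiated. The *Hottip* gRNA group (4 arrays) and the *Hoxa13* gRNA group (3 arrays) received a pool of guide RNA plasmids against the *Hottip* or the *Hoxa13* promoter together with a plasmid for dCas9-VP160, a Cas9 that cannot cut DNA, fused to an activation domain. The control group (3 arrays) received non-targeting guides and dCas9 alone. According to the study's text this control had no VP160. It would then differ from both other groups in the activation domain as well as in the guides. The protocol in the labels names only the dCas9-VP160 plasmid, so this difference rests on the study's text. Transfection was transient. Cells were selected with 2 µg/ml puromycin for 24 hrs and RNA was taken 48 hrs after transfection, each array from a separate biological replicate per the labels.

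A ribosome holds 1 copy of nearly every one of these proteins, and cells that divide fast, such as ES cells, make their mRNAs in very large amounts. The amounts are tuned together. Many of these mRNAs start with an uninterrupted run of C and T letters, the terminal oligopyrimidine tract, through which the mTOR pathway sets how actively they are translated. A few genes of the family are copies with restricted use, such as *Rpl3l* in heart and skeletal muscle and *Rpl10l* and *Rpl39l* in the testis. Single members also have duties outside the ribosome, such as *Rpl5* and *Rpl11*, which bind the p53 regulator Mdm2.

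The start-site sequences give a feature outside the array values that is more frequent in the family than among all genes, although most of its windows do not have it. RefSeq (GRCm38.p6) promoter windows were matched for 63 of the 83 genes, 75 windows in all. A run of at least 8 C or T letters that touched the 5 bases before or after the annotated start was found in 33.33% of the windows of the family and in 9.38% of all 32851 windows of the table. For runs of at least 10 letters the shares were 25.33% and 4.96%. The median run was 5 letters in the family and 3 over all windows. C was the annotated start base in 30.67% of the family's windows and in 16.32% of all windows. These are counts of letters at annotated starts, not measured start sites. The windows below run from 10 bases before the start through the 20 bases from it, on the gene's strand, and capitals mark the longest run of C and T at the start. The first 4 are subunit proteins with a run of at least 10 letters, the next 2 are subunit proteins with hardly any run, and the last 4 are copies that the results come back to.
Rpl27a: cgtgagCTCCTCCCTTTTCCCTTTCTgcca
Rpl35: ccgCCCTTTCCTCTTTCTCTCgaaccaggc
Rps6: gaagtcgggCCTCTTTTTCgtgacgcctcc
Rpl38: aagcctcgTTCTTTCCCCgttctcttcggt
Rpl10: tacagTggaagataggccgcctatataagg
Rps12: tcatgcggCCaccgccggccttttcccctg
Rpl22l1: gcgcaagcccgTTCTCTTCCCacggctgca
Rpl39l: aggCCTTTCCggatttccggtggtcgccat
Rpl7l1: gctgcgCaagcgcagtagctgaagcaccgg
Rpl3l: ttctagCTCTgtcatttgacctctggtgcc
The run is 20 letters long in *Rpl27a* (chr7:109519185-109519214, + strand), 18 in *Rpl35* (chr2:39005112-39005141, - strand) and 10 in *Rps6* (chr4:86857348-86857377, - strand) and *Rpl38* (chr11:114668570-114668599, + strand). It is 1 letter in *Rpl10* (chrX:74270806-74270835, + strand) and 2 in *Rps12* (chr10:23787190-23787219, - strand). Among the copies, *Rpl22l1* (chr3:28805498-28805527, + strand) has a run of 10 letters and *Rpl39l* (chr16:10170218-10170247, + strand) one of 7. In *Rpl3l* (chr17:24727816-24727845, + strand) the longest run is 4 letters and in *Rpl7l1* (chr17:46782637-46782666, - strand) it is 1. Long and short runs thus occur among both standard members and copies. Of the motifs counted on both strands of the 300-base windows, CTTTCC was in 48.0% of the family's windows against 26.56% of all, and CCGGAAG, the core of ETS factor sites, in 32.0% against 8.86%. TATAAA was in 9.33% against 13.62%.

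The labels were first compared with the arrays. All 8 ES cell markers (*Pou5f1*, *Nanog*, *Sox2*, *Zfp42*, *Esrrb*, *Tdgf1*, *Utf1* and *Dppa5a*) were well above background on all 10 arrays, whereas the fibroblast markers *Postn* and *Lum* were well above background on 0 arrays and the other 6 of 8 on 1 to 7 arrays. *Hoxa13* was well above background on all 4 *Hottip* gRNA arrays and on 0 of the 3 arrays labelled *Hoxa13* gRNA and 0 control arrays. It was at least 143.8-fold higher with *Hottip* gRNAs than in the control. For this bound the control was set at the dimmest signal still well above background on each array. The bound itself was not tested, and the levels as measured gave a limma adjusted p of 0.0001115. Thus the *Hoxa13* gRNA arrays do not show a rise of the gene their label names, and every direction given for them below rests on the label. No probe was matched to *Hottip*. *Hoxa13* gRNA replicates 1 and 2 lie on 1 slide and the other 8 arrays on another, slide 2. Row 1 of slide 2 held *Hoxa13* gRNA replicate 3, *Hottip* gRNA replicates 1 and 2 and control replicate 3. Row 2 held *Hottip* gRNA replicates 3 and 4 and control replicates 1 and 2. *Hottip* gRNA replicates 3 and 4 were not corrected by the scanner software for a trend across the array.

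The ribosomal protein genes were among the brightest features on the arrays. The chosen probe of 81 of 83 genes (the one with the highest mean over all arrays) was well above background on all 10 arrays. The exceptions were *Rpl3l* (8 arrays) and *Rps23rg1* (6 arrays). All 166 probes passed the filter used for testing, 3 arrays well above background. The scanner records no intensity above 65502, and the median pixel intensity of the family lay at 59.5% of this limit on *Hoxa13* gRNA replicate 1 and between 67.5% and 78.8% of it on the other 9 arrays. On the processed intensities, 56 to 76 genes per array lay within a factor of 2 of the limit, of the 74 to 83 genes with a value. Over all probes the share was 1.54% to 3.91%. Saturated spots were found for 43 of the 166 probes and for the chosen probe of 31 genes on at least 1 array. *Rps9* was saturated on 8 arrays, *Rps16* on 6, and *Rps15* and *Rpl36* on 5 each. *Rps27* was saturated on 4, and *Rpl29*, *Rpl41*, *Rps10*, *Rps15a* and *Rps27a* on 3 each. The scanner software also marked spots as outliers, and these were left out, so that 24 chosen probes had no value on at least 1 array. Control replicate 3 lost the most, 24 of the 166 probes.

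Levels below are log2 of the processed intensity minus the 75th percentile of the same array. On this scale the family median was 4.24, 4.66 and 5.64 on the 3 control arrays (mean 4.85 ± 0.72, SD, n = 3). It was 5.50, 5.81, 4.97 and 4.31 on the 4 *Hottip* gRNA arrays (mean 5.15 ± 0.66, SD, n = 4). On the 3 *Hoxa13* gRNA arrays it was 6.06, 5.67 and 5.72 (mean 5.81 ± 0.21, SD, n = 3). All 3 *Hoxa13* gRNA arrays lay above all 3 control arrays, and the *Hottip* gRNA arrays spanned most of the control range. On slide 2 the medians also parted by row, 5.50 to 5.81 in row 1 and 4.24 to 4.97 in row 2. *Hoxa13* gRNA replicate 3 (5.72) and control replicate 3 (5.64) shared row 1. The part of the slide row was not tested. The scanner limit on the same scale moved as the family median did, between 4.67 on *Hottip* gRNA replicate 4 and 6.80 on *Hoxa13* gRNA replicate 1. The family median lay at -0.75 to -0.20 relative to this limit on the 10 arrays.

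**Figure D1:**
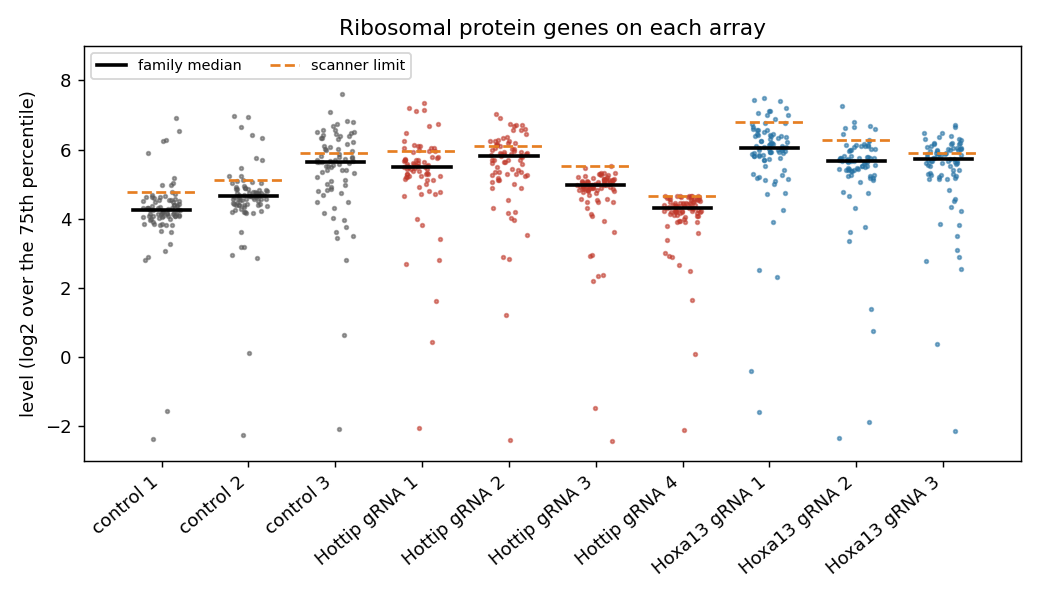
Level of each of the 83 ribosomal protein genes (points, chosen probe) on each of the 10 arrays, as log2 of the intensity over the array's 75th percentile, with the family median (black line) and the scanner limit on the same scale (dashed). The medians, from 4.24 to 6.06, lie just under the limit on every array, and a few members, such as Rpl3l, lie far below it. Points above the dashed line are processed intensities, which can exceed the recorded ones.

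Before any scaling the family differed less between arrays. The median processed intensity was 45065 to 54787 on the control arrays, 44708 to 52991 on the *Hottip* gRNA arrays and 39034 to 57150 on the *Hoxa13* gRNA arrays, and the 3 ranges overlapped. The unscaled family median spanned 0.55 on the log2 scale over the 10 arrays. The scaled median spanned 1.81 and the 75th percentile that scaled it spanned 2.13. The Pearson correlation of the scaled family median with log2 of the 75th percentile was -0.968 over the 10 arrays, a description only, since the percentile enters both values. With the median of bright probes outside the family (mean level over 3) it was 0.947 (Spearman's rho 0.891), and with the bright spike-in RNAs, which were added to each sample, 0.890. The same percentile was subtracted from the bright probes and the spike-in RNAs, so these correlations are descriptions only as well.

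**Figure D2:**
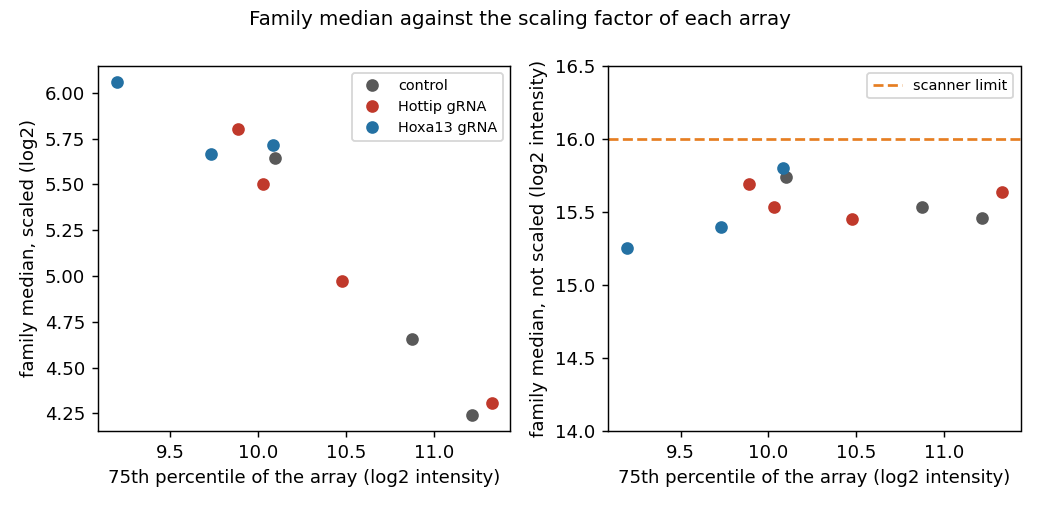
Family median of each array against log2 of the 75th percentile used to scale that array, scaled (left) and not scaled (right, with the scanner limit dashed), coloured by group. The scaled median falls as the percentile rises, whereas the unscaled median stays within 0.55 on the log2 scale.

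The first comparison asked whether dCas9-VP160 at the *Hottip* promoter moved the ribosomal protein genes relative to the control. No member was called by limma (adjusted p below 0.05 after Benjamini-Hochberg over 22832 probes), where 0.718% of all probes tested were called. The median log2 difference over the 83 genes was 0.24, with 68 genes higher and 15 lower. Without control replicate 1 the median was -0.11 and without control replicate 3 it was 0.63. In the full set it was 0.15 over 4621 bright probes outside the family and -0.03 over all probes tested. By unadjusted p below 0.05, 1 of the 166 probes was higher (0.602%, background 3.76%) and 2 were lower (1.2%, background 4.29%). The groups did not overlap for 2 probes that were higher (1.2%, background 5.95%) and 7 that were lower (4.22%, background 7.78%). All 4 shares were under the background, which is the share over all probes tested. By unadjusted p below 0.05, 50 of the 4621 bright probes outside the family were higher and 36 lower.

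The 5 highest differences were those of *Rpl41* (1.05), *Rps26* (0.95), *Rps14* (0.86), *Rpl30* (0.82) and *Rps23* (0.64), all subunit proteins with unadjusted p above 0.05. *Rpl41*, the smallest protein of the ribosome, had levels of 6.75, 7.03, 5.32 and 4.67 with *Hottip* gRNAs against 4.66 and 5.12 on the 2 control arrays with a value (SE of the difference 0.66, limma adjusted p = 0.852). *Hottip* gRNA replicates 1, 2 and 3 lay above both control arrays and replicate 4 between them. The probe was saturated on 2 of the 4 *Hottip* gRNA arrays, so this difference rests in part on values at the scanner limit. *Rpl41*, *Rps26*, *Rps14* and *Rpl30* had no value on control replicate 3, the control array with the highest family median, so their control means rest on the other 2 arrays.

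Among the lowest differences were those of *Rps13* (-2.10), *Rpl32l* (-1.49), *Rpl10* (-0.78) and *Rpl39l* (-0.72). *Rps13*, a small subunit protein, had levels of 5.24, 2.35 and 2.65 on *Hottip* gRNA replicates 2, 3 and 4 against 5.02, 5.06 and 6.44 in the control (SE 0.74, limma adjusted p = 0.427). The 2 low arrays are those without the trend correction. Without them the difference was -0.27, resting on *Hottip* gRNA replicate 2 alone. The gene's other probe gave a difference of 0.067, so the probes of *Rps13* disagree by 2.16. For *Rpl10* the probes also had both signs, from -0.78 to 0.67. Its chosen probe had values only on the same 2 *Hottip* gRNA arrays and was saturated on 1 of them.

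*Rpl32l*, a copy of *Rpl32*, had levels of 3.96, 2.37 and 1.65 on 3 *Hottip* gRNA arrays against 4.08 and 4.20 on 2 control arrays. These groups did not overlap, with a limma adjusted p of 0.658. The 2 lowest values again come from replicates 3 and 4. Without these arrays the difference was -0.19, resting on *Hottip* gRNA replicate 2 alone. *Rpl39l* had 1.63, 2.21 and 2.48 against 2.81, 2.86 and 2.81, again without overlap (limma adjusted p = 0.842). *Rpl7l1*, a paralogue of *Rpl7* that takes part in ribosome assembly, had 2.68, 2.84, 2.96 and 2.92 against 3.62, 3.18 and 3.76, all 4 arrays below all 3 controls. Its difference was -0.67 (SE 0.49, limma adjusted p = 0.909), and the two-sided exact permutation p of 0.029 is the smallest that 4 arrays against 3 can give. *Rps21*, a small subunit protein at 19.1% of the scanner limit on average, was also lower without overlap (-0.59, exact permutation p = 0.029, limma adjusted p = 0.819).

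The second comparison set the arrays labelled *Hoxa13* gRNA against the control. No member was called by limma here either, where 0.175% of 22830 probes were called. The scaled levels of the family were nonetheless mostly higher, with a median log2 difference of 0.93 and 77 genes higher against 6 lower. Over bright probes outside the family the median was 0.62, and over all probes tested 0.19. By unadjusted p below 0.05, 55 of the 166 probes were higher (33.1%, background 7.98%) and 2 lower (1.2%, background 2.98%). Groups did not overlap for 63 probes that were higher (38%, background 16.7%) and 6 that were lower (3.61%, background 7.14%). The background is over all probes tested. By unadjusted p below 0.05, 813 of the 4620 bright probes outside the family were higher and 2 lower. On slide 2 control replicates 1 and 2 lay in the other row from *Hoxa13* gRNA replicate 3. On slide 2 alone, with replicate 3 as the single *Hoxa13* gRNA array, the median was 0.80. With 1 array in that group, which is then assumed to vary as the others do, 2 probes had an unadjusted p below 0.05 in either direction. That number, 57 with all arrays, was 13 without control replicate 1, 25 without control replicate 2, 19 without *Hoxa13* gRNA replicate 1 and 100 without control replicate 3. The median was 0.62 without control replicate 1.

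The size of this shift changed with the scaling. It was 0.35 when arrays were centred on the bright probes outside the family, 0.16 after cyclic loess, 0.019 after quantile normalization, -0.036 in the authors' log2 values and -0.14 without scaling. On the same 5 scales, the *Hottip* gRNA difference from the control was 0.13, 0.068, 0.13, 0.0089 and -0.059. No direction is therefore given for the family. The number of probes with an unadjusted p below 0.05 in either direction, 57 on the main scale, was 21 with centring on bright probes, 9 after quantile normalization, 7 in the authors' values and 11 without scaling. With saturated spots left out the median was 1.01.

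**Figure D3:**
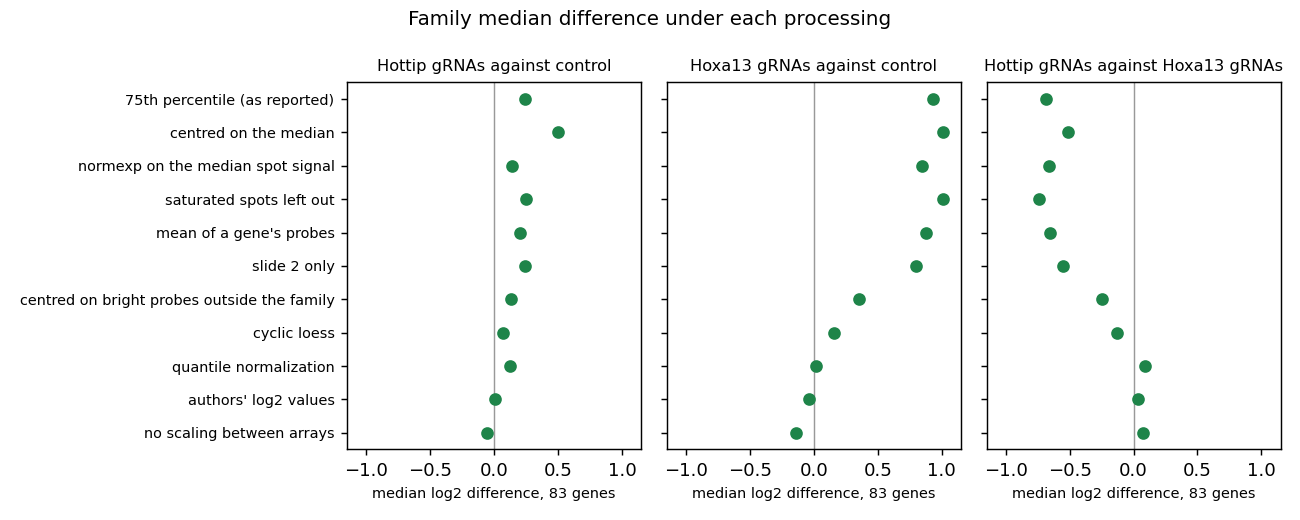
Median log2 difference of the 83 ribosomal protein genes in each of the 3 comparisons (panels) under 11 ways of processing the arrays (rows). For Hoxa13 gRNAs against the control the points run from 1.01 with centring on the median to -0.14 without scaling between arrays.

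*Rpl30*, *Rpl41*, *Rpl21*, *Rpl3* and *Rpl24*, all large subunit proteins, had the highest differences (1.73, 1.63, 1.58, 1.53 and 1.52). *Rpl30*, *Rpl41* and *Rpl24* had no value on control replicate 3, the control array with the highest family median. Their control means rest on the other 2 arrays. The 2 probes of *Rpl24* gave 0.62 and 1.52. *Rpl21* had levels of 7.01, 5.76 and 5.68 on the *Hoxa13* gRNA arrays against 4.12, 4.57 and 5.02, without overlap, and the lowest adjusted p of the chosen probes in this comparison (SE 0.45, limma adjusted p = 0.374). Its 3 probes had both signs, from -1.16 to 1.58, and the other 2, much dimmer, were both lower than in the control, so no direction can be given for *Rpl21*. *Rpl3*, which lies near the catalytic centre of the ribosome, had 7.49, 6.27 and 5.78 against 4.51, 4.85 and 5.59. It was saturated on 2 arrays. *Rpl30* had 5.91, 5.79 and 6.03 against 3.99 and 4.36 on the control arrays with a value, and its 3 probes ranged from 0.18 to 1.73. With 3 arrays against 3 a two-sided exact permutation test cannot go below p = 0.1, the value of *Rpl21* and *Rpl3*.

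Among the lowest differences were those of *Rpl7l1* (-1.47), *Rpl39l* (-0.67), *Rpl38* (-0.38) and *Rps10* (-0.33). *Rpl7l1* had levels of 2.52, 0.74 and 2.89 against 3.62, 3.18 and 3.76 in the control (SE 0.52, limma adjusted p = 0.447), so that it was lower than all control arrays under both guide pools. Without *Hoxa13* gRNA replicate 2 the difference was -0.82. Both sets of guides share these control arrays. Its partner *Rpl7* had 5.77, 5.41 and 5.87 against 4.04 and 4.53, a difference of 1.40 in the other direction (limma adjusted p = 0.447). Its 4 probes ranged from 0.25 to 1.40, and the chosen one had no value on control replicate 3. *Rpl39l* had 2.31, 1.38 and 2.78 against 2.81, 2.86 and 2.81, also below every control array (limma adjusted p = 0.542), and differed by -0.28 without *Hoxa13* gRNA replicate 2. Its partner *Rpl39* gave 0.56 with overlapping groups, and the 3 probes of *Rpl39* had both signs, from -0.98 to 0.62.

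For *Rps10* a single array set the sign, with 5.91, 6.13 and 2.56 on the *Hoxa13* gRNA arrays, and without replicate 3 the difference was 0.82. *Rpl38*, whose loss in mice disturbs Hox protein synthesis and the axial skeleton, had 6.06, 5.52 and 5.99 against 6.26, 6.42 and 6.02 (SE 0.55, limma adjusted p = 0.782). Its second probe gave 1.26, so no direction can be given for *Rpl38*.

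**Figure D4:**
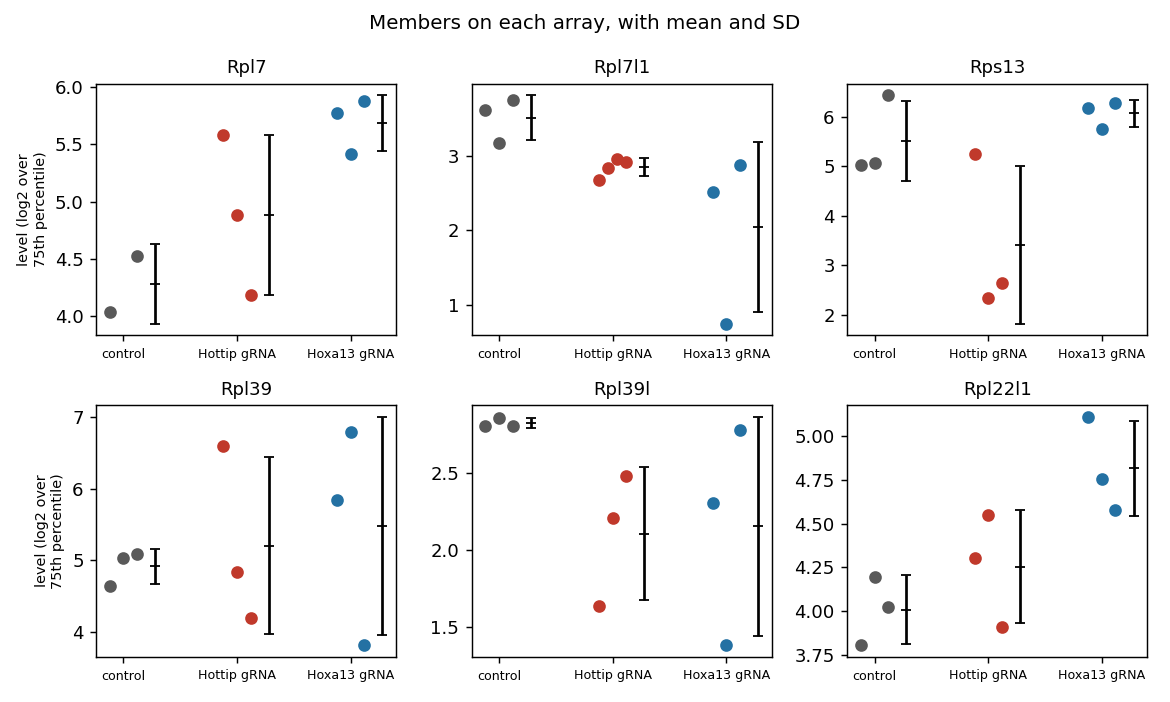
Levels of Rpl7, Rpl7l1, Rps13, Rpl39, Rpl39l and Rpl22l1 on each array (points) by group, with mean and SD beside them, as log2 over the array's 75th percentile. All Hottip gRNA and Hoxa13 gRNA points of Rpl7l1 and Rpl39l lie below the 3 control points, none of the differences passing the test.

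The third comparison set both guide pools against each other, with the activation domain present in both. No member was called by limma, where 0.381% of 22825 probes were called. The median log2 difference, *Hottip* gRNAs minus *Hoxa13* gRNAs, was -0.69, with 5 genes higher and 78 lower, against -0.52 over bright probes outside the family and -0.26 over all probes tested. By unadjusted p below 0.05, 0 of the 166 probes were higher (background 4.06%) and 25 were lower (15.1%, background 7.87%). Of the 4621 bright probes outside the family, 9 were higher and 370 lower by this threshold. Among the family's probes, groups did not overlap for 0 that were higher (background 4.98%) and 53 that were lower (31.9%, background 12.8%). The 25 became 3 without *Hoxa13* gRNA replicate 1, 16 without its replicate 2, 4 and 9 without *Hottip* gRNA replicates 4 and 3, 12 without control replicate 2 and 40 without control replicate 3. It was 0 without both *Hottip* gRNA arrays that lack the trend correction, where the median was -0.24. By scaling, it was 7 with centring on bright probes, 4 after quantile normalization, 4 in the authors' values and 5 without scaling. The median was -0.39 without *Hottip* gRNA replicate 4, -0.55 on slide 2 alone, 0.093 after quantile normalization, 0.038 in the authors' log2 values and 0.075 without scaling.

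Only 4 of the 81 genes well above background on all arrays were higher with *Hottip* gRNAs on this scale, *Rpl7l1* (0.80), *Rps10* (0.54), *Rps26* (0.19) and *Rps14* (0.09). *Rps10* was saturated on 3 of the 4 *Hottip* gRNA arrays, so its value there is limited by the scanner. Those of *Rpl7l1*, *Rps26* and *Rps14* were negative on slide 2 alone (-0.035, -1.001 and -0.85), and that of *Rps10* was negative without *Hoxa13* gRNA replicate 3 (-0.62). The 5 lowest were *Rps13* (-2.66), *Rpl32l* (-2.55), *Rpl10* (-1.42), *Rpl36a* (-1.38) and *Rpl21* (-1.29). *Rps13* had 5.24, 2.35 and 2.65 against 6.18, 5.76 and 6.28 (SE 0.74, limma adjusted p = 0.219), and its other probe gave 0.16. Without *Hottip* gRNA replicates 3 and 4 the difference of *Rps13* was -0.83, that of *Rpl32l* -1.25 and that of *Rpl36a* -0.79. For *Rps13* and *Rpl32l* this leaves *Hottip* gRNA replicate 2 as the only array with a value. For *Rpl10* only 2 arrays of each group had a value. *Rpl21* had 4.91, 5.06, 4.99 and 4.47 against 7.01, 5.76 and 5.68, without overlap (exact permutation p = 0.029, limma adjusted p = 0.281). Its 3 probes had both signs here too, from -1.29 to 0.66.

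The members differed in their distance from the scanner limit. By the mean over the 10 arrays, 70 genes lay within a factor of 2 of the limit and 13 lay lower, a division made after the values were seen. The 13 were *Rpl3l*, *Rps23rg1*, *Rpl39l*, *Rpl7l1*, *Rps21*, *Rps3*, *Rpl10l*, *Rpl32l*, *Rps27l*, *Rps4l*, *Rpl22l1*, *Rpl36al* and *Rpl5*. The nearest genes on either side were *Rpl5* at 49.8% and *Rpl22* at 52.3% of the scanner limit. The median differences of the 13 genes were -0.04, 0.64 and -0.52 in the 3 comparisons, in the order given above. Those of the other 70 were 0.25, 0.96 and -0.72. With *Hottip* gRNAs 6 of the 13 were higher than the control and 7 lower, against 62 and 8 of the 70.

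**Figure D5:**
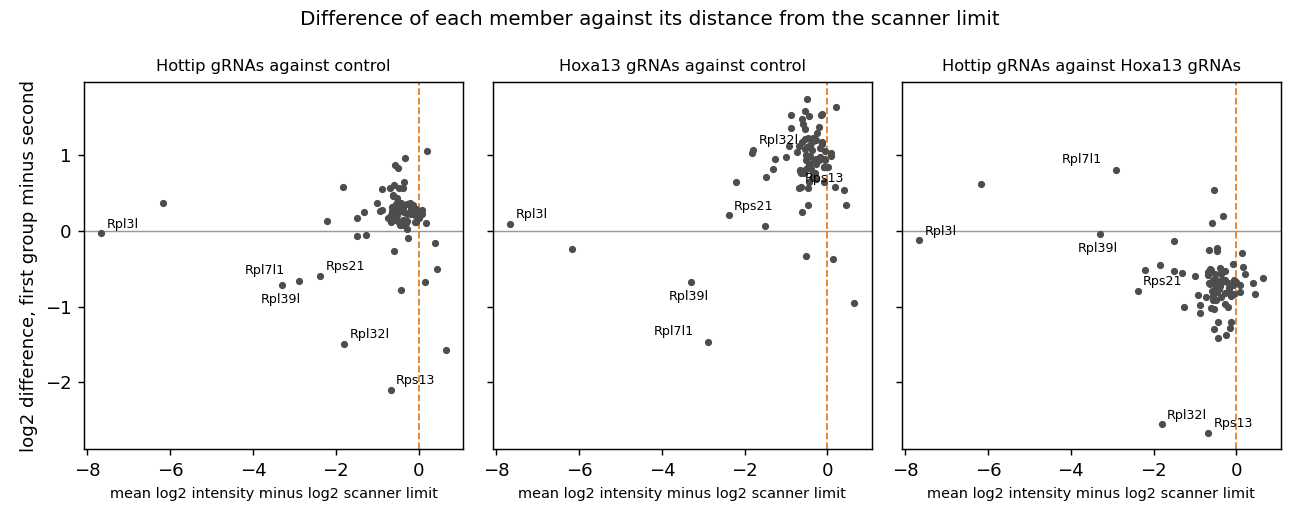
Log2 difference of each of the 83 genes (vertical axis, first group minus second) against its mean log2 intensity minus that of the scanner limit (horizontal axis, dashed line at the limit), for the 3 comparisons. Most members form 1 cloud near the limit, and the members that stand apart include Rpl7l1 and Rpl39l below it and Rps13 near it.

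The copies were set beside the genes they derive from. *Rpl3l*, the muscle copy, was at 0.493% of the scanner limit on average, with levels of -1.56, -2.25 and -2.09 in the control, and differed by -0.04 with *Hottip* gRNAs and 0.09 with *Hoxa13* gRNAs (limma adjusted p = 0.999 and 0.936). *Rpl10l* differed by 0.57 and 1.03, and whether its probe also binds RNA of *Rpl10*, a near-identical gene, was not tested. *Rpl22l1* differed by 0.25 and 0.81, beside 0.26 and 1.12 for *Rpl22*. *Rpl36al* differed by -0.06 and 0.94, beside -0.09 and 1.29 for *Rpl36a*. *Rps4l* differed by 0.17 and 0.70, beside 0.30 and 1.17 for *Rps4x*. *Rps27l*, a p53 target, differed by -0.07 and 0.06, beside -0.16 and 0.53 for *Rps27*, which was saturated on 4 arrays. None of these passed the test (lowest adjusted p 0.447, limma). With *Hottip* gRNAs the probes of *Rps27* had both signs, from -0.16 to 0.46, as did those of *Rpl36a*, from -0.09 to 0.24. With *Hoxa13* gRNAs the 2 probes of *Rpl22* gave 0.02 and 1.12. Where a copy and its partner are alike in sequence, their probes may share signal.

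For members known for duties outside the ribosome the chosen probes gave the following. *Rpl5* differed from the control by 0.36 with *Hottip* gRNAs and 0.96 with *Hoxa13* gRNAs, and *Rpl11* by 0.30 and 1.33. *Rps19*, the gene most often affected in Diamond-Blackfan anaemia, differed by 0.26 and 0.99, and *Rps6*, the substrate of the S6 kinases, by 0.36 and 1.11. The probes of *Rps6* had both signs, from -0.027 to 0.37 with *Hottip* gRNAs and from -0.49 to 1.37 with *Hoxa13* gRNAs, as did those of *Rpl11* with *Hottip* gRNAs (-0.16 to 0.30). The lowest limma adjusted p among these 8 differences was 0.447. *Rpl36* was saturated on all 3 control arrays and *Rps9* on all 4 *Hottip* gRNA arrays, so for these only a bound exists and no fold is given.

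Most members followed one another from array to array. The Pearson correlation of a member's level with the median of the other members over the 10 arrays had a median of 0.899, was over 0.9 for 41 of the 83 genes and over 0.8 for 57. These are descriptions, since the members share the arrays and their scaling. It was under 0.5 for 13 genes, and the lowest were *Rpl7l1* (-0.385), *Rpl39l* (-0.373) and *Rpl3l* (-0.161). The genes with Rps symbols and those with Rpl symbols had like medians. Against the control they were 0.24 and 0.24 with *Hottip* gRNAs and 0.84 and 0.95 with *Hoxa13* gRNAs. Of the 51 genes with several probes, 21 had probes of both signs for *Hottip* gRNAs against the control, 8 for *Hoxa13* gRNAs against the control and 9 between the guide pools.

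Related gene lists had median differences of the same sign on this scale, and none had a called member in any comparison. The 7 ribosomal proteins whose symbols fall outside the rule, such as *Rplp0* and *Rpsa*, had median differences of 0.36 with *Hottip* gRNAs and 1.11 with *Hoxa13* gRNAs, each against the control, with 7 of 7 higher in both. The 23 translation factors tested had 0.27 and 0.96. For 22 abundant genes outside translation the medians were 0.33 and 1.01, as large as those of the family. Ribosome biogenesis genes had 0.13 and 0.55, with 22 of 31 and 23 of 30 genes higher. The 77 mitochondrial ribosomal proteins tested, which form a separate ribosome and had an array median of 3.30 to 4.13, had 0.06 and 0.44. The 8 ES cell markers had 0.22 and 0.97. Their part and that of the scaling in each of these values were not tested.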

How the data were processed

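Cy3-labelled RNA of 10 samples was hybridised to 1-colour Agilent arrays (array design on mm9). The authors deposited spot intensities written by Feature Extraction 11.5.1.1, with a processed signal from which background is already subtracted, and a table of log2 values. Each column of the deposited log2 table ranks spots as the median signal minus background does. The columns have nearly the same median (7.186 to 7.196) and maximum (15.999 to 16.0). The table was therefore treated as quantile-normalized and used as an alternative. The submitters' notes name limma.

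Control spots (after scaling, outlier spots too) were left out, and processed signals were put on the log2 scale less the 75th percentile of their own array (59305 spots). Spots of a probe were averaged and saturated spots kept. Accessions were named through RefSeq genes (GRCm38.p6), which gave 27656 of 55681 probes 1 symbol. *Rpl37* and *Rps27rt* had no matched probe and are not analysed here. A gene's value is that of its probe with the highest mean.

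Groups were compared with limma 3.58.1 (lmFit, eBayes) in R 4.3.3 over all probes and arrays, with Benjamini-Hochberg adjustment over probes well above background on at least 3 arrays and a threshold of 0.05. Exact permutation tests (two-sided) were added for single genes. The fit was tested on simulated data. The members and gene lists were chosen with earlier results of these data known. Named genes were the 5 highest and 5 lowest differences per comparison among genes well above background on all 10 arrays, the copies and their partners, *Rpl5*, *Rpl11*, *Rps19*, *Rps6*, *Rpl38*, and saturated or dim members. A gene among the lowest differences is not reported here. Normexp (offset 50) used the median signal, since the files hold no mean signal. The number of arrays and the distance from the scanner limit bound the precision.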

Additional observations from a re-analysis of the deposited data

How the results depend on the processing

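No member was called in any of the 3 comparisons under any of the 31 settings, which include the main one. The setting that asks for a log2 difference of at least 1 only narrows the main calls, so it could not add any. The lowest adjusted p was 0.0518 by limma. The number of probes with an unadjusted p below 0.05 ran from 0 to 9 for *Hottip* gRNAs against the control, from 2 (slide 2 only) to 100 (without control replicate 3) for *Hoxa13* gRNAs against the control and from 0 to 43 between the guide pools.

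The median difference of *Hoxa13* gRNAs from the control moved from 0.93 to 0.019 with quantile normalization, 0.16 with cyclic loess, 0.35 with centring on bright probes, -0.036 in the authors' log2 values and -0.14 without scaling. That between the guide pools moved from -0.69 to 0.093 with quantile normalization, 0.038 in the authors' values and 0.075 without scaling. Leaving out 1 array at a time, the medians ran from -0.11 (without control replicate 1) to 0.63 (without control replicate 3), from 0.62 (without control replicate 1) to 1.30 (without control replicate 3), and from -0.95 (without *Hottip* gRNA replicate 2) to -0.39 (without *Hottip* gRNA replicate 4). Without the 2 *Hottip* gRNA arrays that lack the trend correction, the first was 0.71 and the third -0.24. The replicate numbers do not pair the samples (correlations of same-numbered arrays -0.233 to 0.141). With the replicate number as a block the medians were 0.49, 0.93 and -0.41, with 0 calls. Replicate 4 exists only for *Hottip* gRNAs, so its block takes up that array. The medians without that array were 0.49 for the first comparison and -0.39 for the third. The cause of these changes was not tested. The setting without scaling, that without these 2 arrays and a variance prior from the tested probes were chosen after seeing the data.

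Of 806 values of named genes under other settings, 775 kept their direction. Part of these could not turn. Settings that alter only the filter, the threshold, the variance estimate or the group not compared leave a gene's difference as it was. The share is therefore no measure of how firm the directions are. For *Hottip* gRNAs against the control, *Rpl10* turned to 0.041 with centring on the median, 0.30 with normexp, 1.04 in the authors' values, 0.023 with outlier spots kept and 0.15 as the mean of its probes. *Rpl32l* turned to 0.22 with normexp and 0.34 in the authors' values, where *Rps26* turned to -0.028 and *Rps14* to -0.14. For *Hoxa13* gRNAs against the control, *Rpl38* turned to 0.29 with normexp and to 0.44 as the mean of its probes and *Rpl41* to -0.038 in the authors' values. *Rps10* ran from -0.96 to 0.82 with each array left out. Between the guide pools, *Rpl10* turned to 0.12 with quantile normalization, 0.23 in the authors' values and 0.021 without scaling, and *Rps14* to -0.073 with normexp. With the slide as a block, and likewise on slide 2 only, *Rpl7l1* turned to -0.035, *Rps26* to -1.001 and *Rps14* to -0.85. With each array left out, *Rps14* ran from -0.19 to 0.56, *Rps26* from -0.73 to 0.78 and *Rps10* from -0.62 to 1.17.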
